A study of Mus musculus with 4 samples.

Results

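The chemokine receptor genes Ccr2, Ccr4, Ccr7, Ccr8, Ccr9, Cxcr3, Cxcr4, Cxcr6 and Cx3cr1 were followed across the lymphocyte types of mouse melanomas. These 9 genes were taken by symbol from the 32285 genes of the expression tables. All 9 were present in both tables and all 9 passed the filter on low counts. Their RNA was read in CD8 T cells, conventional CD4 T cells, regulatory T cells and cells with RNA of Siglech, a marker of plasmacytoid dendritic cells.

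Chemokine receptors are G protein-coupled receptors that steer cells along gradients of secreted chemokines. In T cells, receptors for lymph node chemokines mark naive and central memory cells, whereas receptors for inflammatory chemokines are gained after activation and direct cells into inflamed tissue and tumors. Regulatory T cells in tumors and plasmacytoid dendritic cells each carry receptors of their own, so the receptor set of a cell bears on both its type and its history.

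B16 melanomas grew in C57BL/6 mice 6 to 8 weeks of age when inoculated. The KO library came from Vsir fl/fl CD4-Cre mice and the WT library from Vsir fl/fl littermates without Cre, so both groups carried the floxed Vsir alleles. Vsir encodes VISTA, an inhibitory checkpoint protein, and the Cd4 promoter that drives Cre is active in developing T cells. Mice of both groups received a TRP2 peptide vaccine on day 3 and an antibody against CTLA-4 (clone 9H10) on days 4 and 8, and infiltrating lymphocytes were isolated on day 18 after treatment. The tumors of 5 to 6 mice per genotype were pooled, lymphocytes were enriched and then sorted by CD4 and CD8 staining, and each pool gave 1 single-cell expression library and 1 T cell receptor library. With 1 library per genotype there was no replicate, so no VISTA-KO against WT difference below carries a test. Intervals on single levels and ratios cover counting error only.

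After cells with fewer than 600 genes or with 30% or more mitochondrial counts were left out, 10224 WT and 9946 VISTA-KO cells remained, and 145 barcodes occurred in both tables. CD8 cells had a Cd8a or Cd8b1 molecule and none of Cd4 (5482 WT and 4301 VISTA-KO cells). Conventional CD4 cells had Cd4 and no Foxp3 (1661 and 2983 cells), regulatory T cells had Cd4 and Foxp3 (1491 and 1260 cells), and 221 and 138 cells had at least 2 Siglech molecules and were kept apart. Median unique molecules (UMIs) per cell were 3922 to 5196 in the CD8 and conventional CD4 gates, 8739 in WT and 5908 in VISTA-KO regulatory T cells, and 9181 and 9486 in Siglech-positive cells. The summed level of 5 T cell markers was 4385 to 4966 CPM (counts scaled to 1000000 UMIs per sum) in the T cell gates. The 8 plasmacytoid dendritic cell markers summed to 13028 and 15058 CPM in Siglech-positive cells and to 368 to 450.2 CPM elsewhere. Vsir was at 112 CPM in CD8 cells of both libraries. WT and VISTA-KO levels were 114 and 120.4 CPM in conventional CD4 and 114 and 118 CPM in regulatory T cells. The libraries were taken as 5′, which read the start of a transcript, and counts need not come from the exons that Cre removes. Read positions were not examined, so the counts check neither the deletion nor the labels.

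In the GRCm38 build, 6 of the 9 genes lay on chromosome 9. These were Ccr4 (114490316 to 114505476), Cx3cr1 (120048683 to 120068296), Ccr8 (120092133 to 120094906), Ccr9 (123767211 to 123783457), Cxcr6 (123806477 to 123811754) and Ccr2 (124101918 to 124109140). Ccr7 lay on chromosome 11 (99144199 to 99155077), Cxcr4 on chromosome 1 (128588199 to 128592299) and Cxcr3 on chromosome X (101731535 to 101734147). Cxcr6 lies inside the span of Fyco1 (123789500 to 123851899). Strands and exons were not examined, so whether this overlap bears on the Cxcr6 counts is not known.

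To ask which receptors separated the lymphocyte types, UMIs were summed per gate and library, and gates were compared with edgeR's quasi-likelihood test over the 2 libraries with the library as a block. A difference was called at an adjusted p under 0.05 and at least 2-fold. A summed level does not tell fewer cells with an RNA from less RNA per cell, so shares of cells are given where they add to it. Ccr8 and Ccr4 were highest in CD4 lineage cells, Ccr8 most of all in regulatory T cells. Cxcr6 was high in CD8 and conventional CD4 cells, and Ccr9 was found almost solely in Siglech-positive cells. In CD8 against conventional CD4 cells, 2 of 9 receptors were lower, beside 1.71% of 12602 genes, and none were higher, beside 0.889%; at an unadjusted p under 0.05, the higher ones were Ccr9 and Cx3cr1. In regulatory against conventional CD4 cells, 1 was higher (2.46% of all genes) and 1 lower (1.26%). In regulatory against CD8 cells, 2 were higher (4.86%) and 3 lower (1.99%). In Siglech-positive cells against the mean of the 3 T cell gates, 1 was higher (13.2%) and 6 were lower (11.8%).

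**Figure D1:**
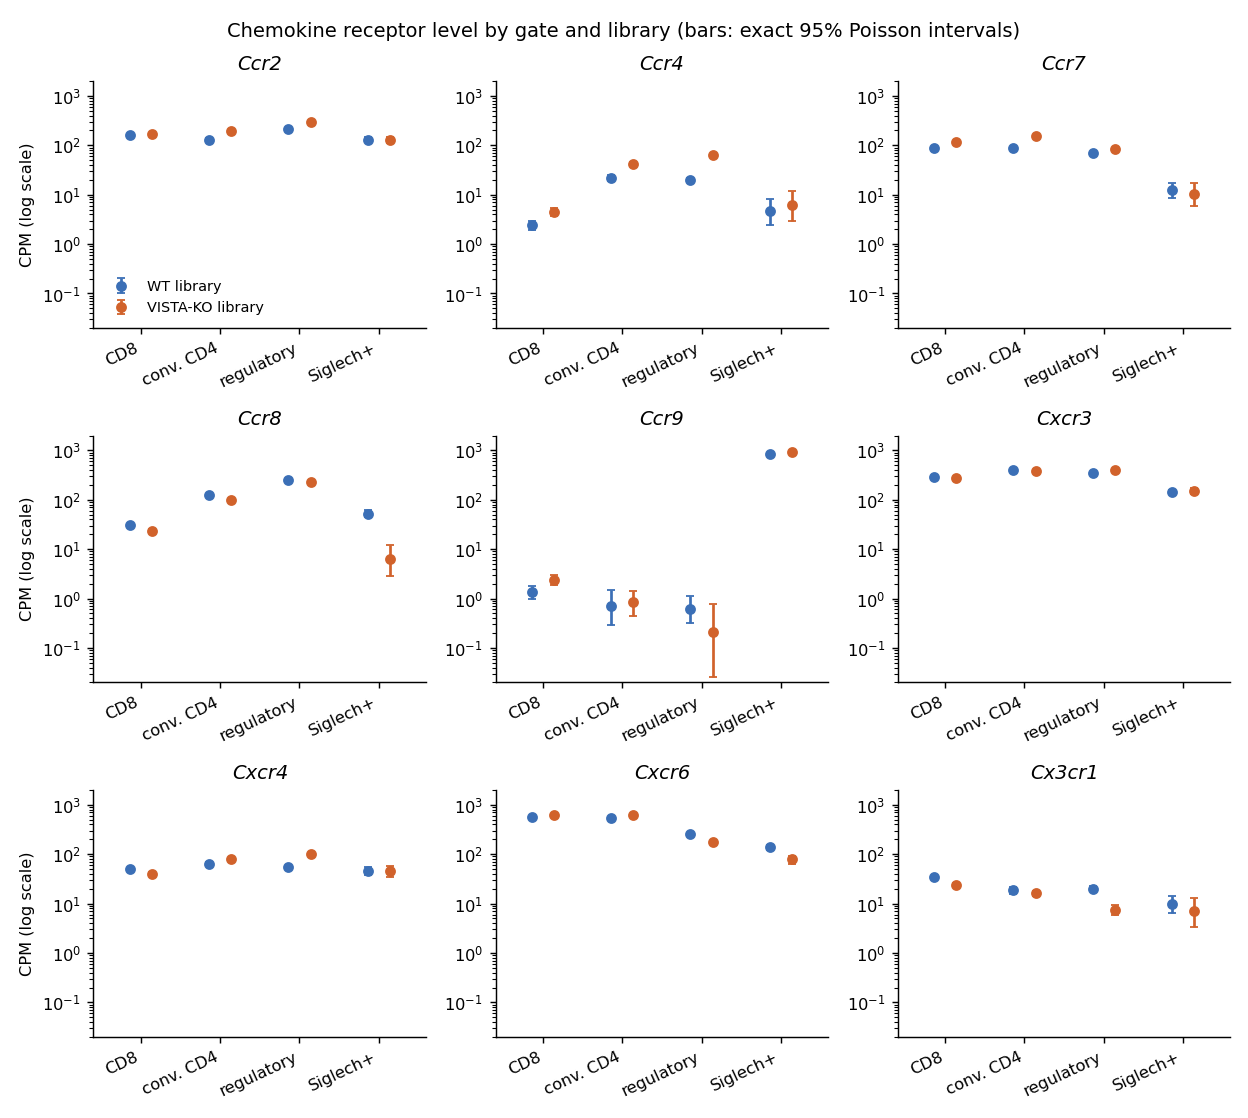
Each panel shows 1 receptor, with CPM (log scale) on the y axis and the 4 gates on the x axis; points are the summed level of the WT (blue) and VISTA-KO (orange) library and bars the exact 95% Poisson intervals, often smaller than the point. Ccr9 stood at 832 and 916 CPM in Siglech-positive cells and at or below 2.40 CPM in the T cell gates, and Ccr8 stood at 31.2 and 23.6 CPM in CD8 cells and at 254 and 229 CPM in regulatory T cells.

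Ccr7 binds Ccl19 and Ccl21 and brings naive and central memory T cells into lymph nodes. In CD8 cells the WT level was 86.8 CPM (95% Poisson interval, 83.8 to 89.9) and the VISTA-KO level 119 CPM (115 to 123). The levels were 87.8 and 152 CPM in conventional CD4 cells, and 69.3 and 83.9 CPM in regulatory T cells. In Siglech-positive cells it was 12.5 and 10.5 CPM. CD8 and conventional CD4 cells did not differ beyond their spread (log2 difference -0.15 ± 0.13 SE, edgeR adjusted p = 0.511). Regulatory T cells were below conventional CD4 cells by less than 2-fold (-0.61 ± 0.13 SE, edgeR adjusted p = 0.0285). Siglech-positive cells were lower than the T cell gates by 2.96 ± 0.23 SE on the log2 scale (edgeR adjusted p = 3.7e-05).

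Cxcr4 is the receptor for Cxcl12, a chemokine of stroma and bone marrow. It stood at 49.6 and 40.6 CPM in CD8 cells, 63.2 and 80.6 CPM in conventional CD4 cells, 54.7 and 99.8 CPM in regulatory T cells and 46.5 and 44.7 CPM in Siglech-positive cells. In VISTA-KO it was higher in regulatory T cells than in CD8 cells by 1.23 on the log2 scale, and in WT by 0.10. No gate comparison of Cxcr4 passed the test, with edgeR adjusted p between 0.0854 and 0.916.

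Cxcr3 binds the interferon-induced chemokines Cxcl9, Cxcl10 and Cxcl11. Its level was 289.6 and 281 CPM in CD8 cells, 392 and 391 CPM in conventional CD4 cells, 347 and 408 CPM in regulatory T cells, and 142 and 149 CPM in Siglech-positive cells. CD8 cells were below conventional CD4 cells by a small margin (log2 difference -0.40 ± 0.08 SE, edgeR adjusted p = 0.0247), and regulatory and conventional CD4 cells did not differ beyond their spread (-0.06 ± 0.08 SE, adjusted p = 0.689). Siglech-positive cells were lower (-1.22 ± 0.08 SE, adjusted p = 1.3e-05). Cxcr3 is X-linked. Xist was at 282 to 473 CPM in all 8 sums.

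Ccr2, the receptor for Ccl2 and Ccl7, is known from monocytes and from effector T cells. Its level was 163 and 167 CPM in CD8 cells, 131 and 192 CPM in conventional CD4 cells, 218 and 301 CPM in regulatory T cells and 129 and 127 CPM in Siglech-positive cells. Regulatory T cells were highest in both libraries. They differed from conventional CD4 cells by 0.67 ± 0.14 SE (edgeR adjusted p = 0.0234) and from CD8 cells by 0.58 ± 0.14 SE (adjusted p = 0.0261) on the log2 scale, both under 2-fold. CD8 and conventional CD4 cells did not differ beyond their spread (0.10 ± 0.14 SE, adjusted p = 0.710).

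Cxcr6, the receptor for Cxcl16, is carried by activated and tissue-resident T cells. It stood at 569.7 and 633 CPM in CD8 cells and at 549 and 634 CPM in conventional CD4 cells, which did not differ beyond their spread (log2 difference 0.07 ± 0.21 SE, edgeR adjusted p = 0.875). Regulatory T cells held less, at 261 and 180.3 CPM, and Siglech-positive cells had 137 and 78.3 CPM. Regulatory T cells were lower than conventional CD4 cells by 1.44 ± 0.22 SE on the log2 scale (edgeR adjusted p = 0.00722) and lower than CD8 cells by 1.52 ± 0.22 SE (adjusted p = 0.004), in both libraries. Without possible doublets (cells with Cd4 and Cd8 UMIs together or with at least 2 productive beta chains), the regulatory T cell level was 100.4 and 96.5 CPM and the difference from conventional CD4 cells was -2.58.

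Cx3cr1 binds the membrane-bound chemokine Cx3cl1 and marks circulating cytotoxic effector cells. CD8 cells were highest, with 34.9 CPM (33.0 to 36.9) for WT cells and 23.8 CPM (22.1 to 25.7) for VISTA-KO cells. Conventional CD4 cells had 18.6 and 16.1 CPM, regulatory T cells 20.2 and 7.49 CPM, and Siglech-positive cells 9.76 and 6.99 CPM. The difference of regulatory T cells from CD8 cells was called (-1.16 ± 0.24 SE, edgeR adjusted p = 0.0157), whereas that of CD8 from conventional CD4 cells was not (0.77 ± 0.23 SE, adjusted p = 0.0941).

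Ccr8, the receptor for Ccl1 and Ccl8, is a known marker of regulatory T cells inside tumors. Its level was 31.2 and 23.6 CPM in CD8 cells, 123 and 97.5 CPM in conventional CD4 cells and 254 and 229 CPM in regulatory T cells. The order of the 3 T cell gates was the same in both libraries. Regulatory T cells were higher than conventional CD4 cells by 1.13 ± 0.26 SE on the log2 scale (edgeR adjusted p = 0.0327) and higher than CD8 cells by 3.10 ± 0.28 SE (adjusted p = 0.00065), and CD8 cells were lower than conventional CD4 cells by 1.97 ± 0.27 SE (adjusted p = 0.00921). The differences of Ccr8 from conventional CD4 cells were not called by DESeq2 (adjusted p = 0.483 for regulatory and 0.134 for CD8 cells) or by edgeR without the library block (0.161 and 0.0639). At an even depth of 2000 UMIs per cell, Ccr8 was seen in 34.2% of WT regulatory T cells (exact 95% interval, 31.7 to 36.7) and 26.1% of VISTA-KO ones (23.6 to 28.6), in 15.1% and 13.0% of conventional CD4 cells and in 3.18% and 3.43% of CD8 cells. Without the thinning, the shares in regulatory T cells were 65.0% and 46.2%.

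Ccr4 binds Ccl17 and Ccl22 and is known from regulatory and type 2 helper T cells. It was low in CD8 cells, at 2.39 CPM (1.92 to 2.95) and 4.47 CPM (3.72 to 5.33). Conventional CD4 cells had 21.7 and 41.6 CPM and regulatory T cells 20 and 62.8 CPM, and Siglech-positive cells had 4.69 and 6.29 CPM. CD8 cells were lower than conventional CD4 cells by 3.14 ± 0.21 SE on the log2 scale (edgeR adjusted p = 0.00089), and regulatory T cells were higher than CD8 cells by 3.41 ± 0.21 SE (adjusted p = 0.000155). Regulatory and conventional CD4 cells did not differ beyond their spread (0.27 ± 0.18 SE, adjusted p = 0.411). At 2000 UMIs per cell, 0.443% and 0.899% of CD8 cells showed Ccr4, against 0.909% (0.110 to 3.25) and 0.730% (0.0185 to 4) of Siglech-positive cells. The latter shares rest on 2 and 1 cells.

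Ccr9, the receptor for Ccl25, guides thymocytes and gut-homing T cells and is a marker of plasmacytoid dendritic cells. Siglech-positive WT cells held 832 CPM (797 to 868) and their VISTA-KO counterparts 916 CPM (868 to 967). The T cell gates held 0.211 to 2.40 CPM. The difference was 9.97 ± 0.14 SE on the log2 scale (edgeR adjusted p = 9e-09). At 2000 UMIs per cell, 72.3% of WT Siglech-positive cells (65.9 to 78.1) and 72.3% of the VISTA-KO ones (64.0 to 79.6) showed Ccr9, against 0.0827% to 0.510% in the T cell gates (96.4% and 97.1% against 0.159% to 1.26% at full depth). Among T cells, the small signal was highest in CD8 cells, at 1.33 and 2.40 CPM. Regulatory T cells were called lower than CD8 cells (-1.92 ± 0.43 SE, adjusted p = 0.0216), a difference that rests on 11 and 2 Ccr9 UMIs in the WT and VISTA-KO regulatory gates and was not called without possible doublets (adjusted p = 0.0554).

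Siglech-positive cells did not all look alike. Of these cells, 17.6% in WT and 18.8% in VISTA-KO had a T cell receptor clonotype, and the T cell markers summed to 1322 and 693 CPM. The 127 WT and 96 VISTA-KO cells without a clonotype and without Cd3d, Cd3e or Cd3g UMIs were therefore read on their own, a choice made after the data were seen. In them Ccr9 was at 1199 CPM (1134 to 1267) and 1069 CPM (1001 to 1140), Ccr2 at 119 and 133 CPM, Cxcr3 at 86.7 and 93.3 CPM and Cxcr4 at 41.0 and 36.2 CPM. These 4 receptors remained well above the counting floor. In contrast, Ccr8 was down to 2 and 0 UMIs, Cxcr6 to 3 and 2 UMIs, Ccr7 to 1 and 2 UMIs and Ccr4 to 0 and 1 UMIs over all these cells. Cx3cr1 kept 6 UMIs in each library, at 5.72 and 7 CPM. The receptor set of these cells was thus Ccr9, Ccr2, Cxcr3 and Cxcr4, with edgeR log2 differences from the T cell gates of 10.30, -0.60, -1.96 and -0.69. Ccr9 was called higher and Cxcr3 lower, whereas Ccr2 was under 2-fold (adjusted p = 0.00888) and Cxcr4 did not pass (adjusted p = 0.136).

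**Figure D2:**
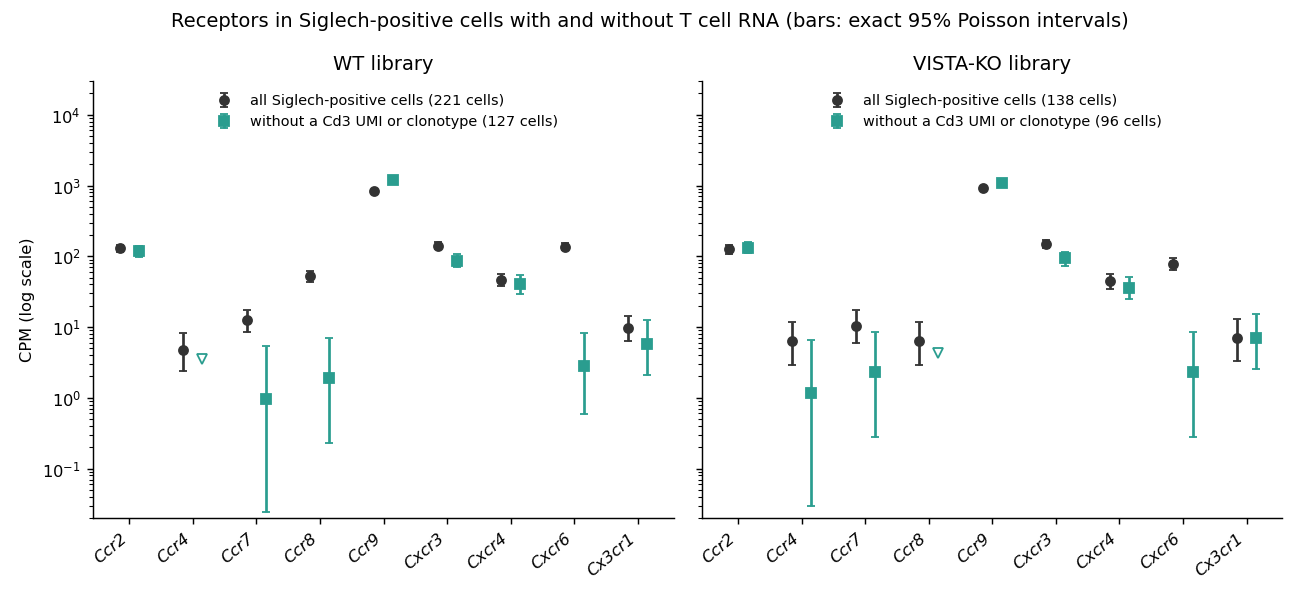
The y axis gives CPM on a log scale for each receptor on the x axis, in the WT (left) and VISTA-KO (right) library, over all Siglech-positive cells (black circles) and over those without Cd3 UMIs or a clonotype (green squares); bars are exact 95% Poisson intervals and open triangles mark the upper bound where no UMI was found. Ccr2 and Cxcr4 stood close together in the 2 sets of cells, whereas Ccr8 and Cxcr6 of the WT library were at 52.3 and 137 CPM in all cells and at 1.91 and 2.86 CPM in the subset.

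The next question was how the receptors stood in the VISTA-KO against the WT library in cells of each type. For Siglech-positive cells VISTA-KO names the library only. The paper describes the deletion as T cell-specific, and its extent in these cells was not examined. A receptor was counted as past the fold at 1.5-fold or more on CPM + 5, given at least 20 CPM in 1 library; this count describes 2 libraries and is no test. In CD8 cells, 7 receptors had at least 20 CPM and none were past the fold, beside 0.824% of 6065 genes higher and 0.594% lower. In conventional CD4 cells, 2 of 7 were higher, Ccr4 and Ccr7, beside 1.01% of 6261 genes, and none were lower (1.10%). In regulatory T cells, 2 of 8 were higher, Ccr4 and Cxcr4, beside 1.93% of 6274 genes, and 1 was lower, Cx3cr1, beside 1.79%. In Siglech-positive cells, none of 6 were higher (1.87% of 6405 genes) and 2 were lower, Ccr8 and Cxcr6 (3.92%). The median log2 ratio of all genes was between -0.04 and -0.01 in the 4 gates.

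Ccr4 showed the widest gap in T cells. In regulatory T cells the WT level was 20 CPM (18 to 22.2) and the VISTA-KO level 62.8 CPM (57.8 to 68.0), which gives a ratio of 3.13 (95% interval, 2.74 to 3.59). The share of cells with Ccr4 at 2000 UMIs was 5.33% (4.22 to 6.61) and 11.6% (9.83 to 13.5). In conventional CD4 cells the ratio was 1.92 (1.64 to 2.25). In that gate, 29.9% of WT cells held a Cd8a or Cd8b1 UMI, against 19.7% of VISTA-KO cells. Its CD8 markers summed to 894 against 441 CPM. The conventional CD4 ratios of Ccr7, Ccr2 and Cxcr4 given below took every cell of the gate, possible doublets included. The WT regulatory gate differed from its VISTA-KO counterpart in these and other ways. It held more cells with a Cd8a or Cd8b1 UMI (50.9% against 29.1%) and more dividing cells (27.2% against 13.5%), its CD8 markers summed to 848 against 387 CPM and its regulatory markers to 1872 against 2444 CPM. Cells with a Cd8 UMI were deeper (median 13684 against 5234 UMIs in WT). Its macrophage markers summed to 141 against 74 CPM and its melanoma markers (Pmel, Mlana, Dct and Tyrp1) to 5.76 against 192 CPM. Of the 1823 melanoma UMIs in VISTA-KO regulatory T cells, 1784 lay in 2 cells. The same markers stood at 225 and 15.9 CPM in conventional CD4 cells (2161 of 2193 WT UMIs in 1 cell) and at 10.3 and 197 CPM in CD8 cells (5452 of 5496 VISTA-KO UMIs in 3 cells). The Ccr4 ratio of regulatory T cells was 3.11 (2.71 to 3.57) without cells holding a melanoma UMI, a choice made after the data were seen, and 3.05 without macrophage RNA. It was 2.56 (2.11 to 3.12) without possible doublets, 2.79 without dividing cells and 2.47 (2 to 3.09) without both. In conventional CD4 cells it was 1.59 without possible doublets and 1.45 (1.19 to 1.78; 36.4 and 52.8 CPM) in stricter gates that also dropped cells with Il2ra, Ikzf2 or Cd8 UMIs, where it was no longer past the fold.

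Cxcr4 was at 54.7 CPM (51.3 to 58.2) in WT regulatory T cells and at 99.8 CPM (93.5 to 106) in those of the VISTA-KO library, with a ratio of 1.83 (1.67 to 2). It was 2.06 without possible doublets and 1.69 without dividing cells. The ratio was 1.27 (1.16 to 1.41) in conventional CD4 cells, 0.963 in Siglech-positive cells and 0.818 (0.759 to 0.882) in CD8 cells, so the CD8 interval lay on the other side of 1. Cx3cr1 in regulatory T cells was 20.2 against 7.49 CPM, a ratio of 0.371 (0.283 to 0.480); it passed the minimum level through the WT library alone. Without possible doublets it was 11.7 against 5.65 CPM, and a ratio of 0.484 (0.295 to 0.777), below that minimum. In CD8 cells the Cx3cr1 ratio was 0.682 (0.621 to 0.750).

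Cxcr6 in regulatory T cells was 261 against 180.3 CPM, a ratio of 0.691 (0.654 to 0.731). Without possible doublets the levels were 100.4 and 96.5 CPM and the ratio 0.961 (0.844 to 1.09). With cells holding a Cd8 UMI left out and no others, they were 114 and 110.5 CPM and the ratio 0.970 (0.865 to 1.09). The ratio was 0.810 (0.696 to 0.944) without both possible doublets and dividing cells. Ccr8 went the other way. Its ratio was 0.902 (0.857 to 0.95) in all regulatory T cells and 0.691 (0.643 to 0.743; 382 against 264 CPM) without possible doublets. Ccr2 was higher in VISTA-KO regulatory T cells by a ratio of 1.38 (1.32 to 1.45) and 1.21 (1.13 to 1.31) without possible doublets. In conventional CD4 cells its ratio was 1.46 (1.37 to 1.56). Cxcr3 had ratios of 0.998 in conventional CD4 cells and 1.18 (1.13 to 1.22) in regulatory T cells, the latter 1.01 (0.962 to 1.06) without dividing cells.

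Ccr7 was higher in VISTA-KO in each T cell gate, with ratios of 1.37 (1.30 to 1.43) in CD8, 1.73 (1.60 to 1.87) in conventional CD4 and 1.21 (1.11 to 1.33) in regulatory T cells. Split by clonotype size, the CD8 level was not higher in VISTA-KO beyond counting error. Clonotypes of 1 cell (834 WT and 1261 VISTA-KO cells) had 277 and 249 CPM. Those of 2 to 9 cells had 82.6 and 46.1 CPM, and those of 10 or more (2620 and 1135 cells) had 22.5 and 22.6 CPM. Why the gate ratio differed from these was not tested. The regulatory ratio changed with the cells taken. It was 1.81 (1.54 to 2.13) without possible doublets, 0.939 (0.842 to 1.05) without dividing cells and 1.08 (0.980 to 1.18) without macrophage RNA.

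Among the other receptors of CD8 cells, the Cxcr6 ratio was 1.11 (1.09 to 1.13). The ratio was 1.02 (0.982 to 1.06) for Ccr2 and 0.970 (0.942 to 0.999) for Cxcr3. Without the largest clonotype of each library, it was 1.37 (1.31 to 1.44; 118 and 162 CPM) for Ccr2 and 1.17 (1.13 to 1.20; 243 and 283 CPM) for Cxcr3. The WT clonotype left out held 1034 CD8 cells. Ccr8 had a ratio of 0.757 (0.686 to 0.833). In stricter gates, with at least 2 Cd8 UMIs and no Foxp3, its levels were 15.5 and 18.9 CPM and the ratio 1.22 (1.07 to 1.38), so its direction depended on which cells were taken.

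**Figure D3:**
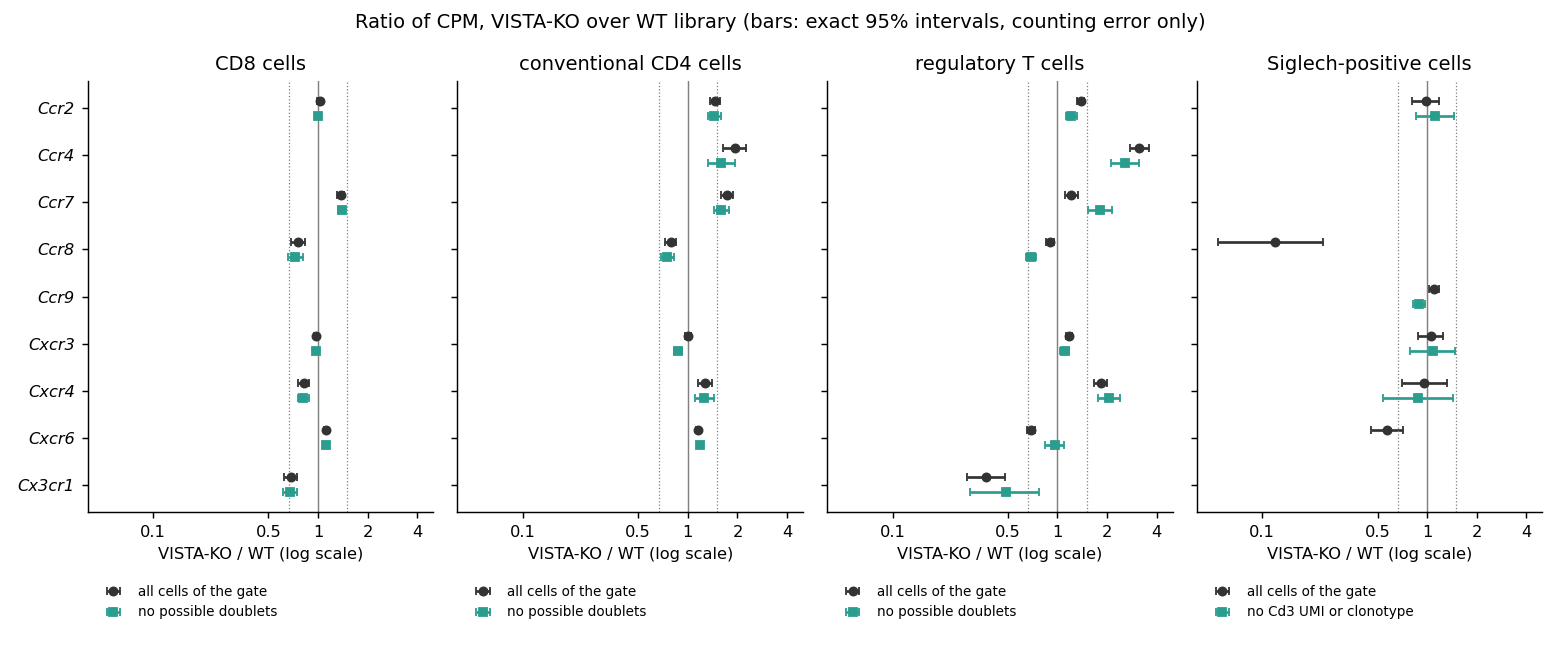
The x axis is the ratio of CPM in the VISTA-KO over the WT library (log scale) for each receptor on the y axis, by gate; black circles take all cells of a gate, green squares leave out possible doublets (T cell gates) or take cells without Cd3 UMIs or a clonotype (Siglech-positive cells), and bars are exact 95% intervals for counting error. Receptors under 20 CPM in both libraries, or with fewer than 20 UMIs in a set of cells, are not drawn; the dotted lines mark 1.5-fold. In regulatory T cells the Ccr4 ratio was 3.13 and 2.56 in the 2 sets of cells, whereas that of Cxcr6 went from 0.691 to 0.961.

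Ccr8 was at 52.3 CPM (43.8 to 62.0) in WT Siglech-positive cells against 6.29 CPM (2.88 to 11.9) in the VISTA-KO ones, with a ratio of 0.120 (0.0538 to 0.235), and it passed the minimum level through WT alone. Cxcr6 was 137 against 78.3 CPM, a ratio of 0.573 (0.459 to 0.711). Neither difference could be seen in the cells without Cd3 UMIs or a clonotype, where Ccr8 and Cxcr6 together had 5 UMIs in WT and 2 in VISTA-KO. Ccr9 had a ratio of 1.10 (1.03 to 1.18) over all Siglech-positive cells and 0.891 (0.818 to 0.971) in that subset.

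Within each T cell gate, cells were split by genes that were not among the receptors, and 4 states are given here. They were dividing cells (at least 2 UMIs of Mki67 and Top2a), cells with Havcr2 and Pdcd1, checkpoint genes of chronically stimulated cells, cells with Pdcd1 and no Havcr2, and the remaining cells. Cxcr6 was highest in Havcr2 Pdcd1 cells. In CD8 cells it was 826 and 993 CPM there against 500.3 and 489 CPM in the remaining cells, and in conventional CD4 cells 841 and 968 CPM against 492 and 619 CPM. Regulatory T cells held less in each of these states, with 342 and 349 CPM against 110.4 and 106 CPM. All levels by state took every cell of a gate, possible doublets included. A Cd8a or Cd8b1 UMI was present in 50.9% of WT and 29.1% of VISTA-KO regulatory T cells. Whether the pattern of regulatory T cells changes without such cells was not tested.

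Ccr7 went the other way. In CD8 cells it was 69.3 and 32.1 CPM in Havcr2 Pdcd1 cells against 82.1 and 128 CPM in the remaining cells. Conventional CD4 cells had 56.7 and 42.8 CPM against 98.7 and 109.5 CPM, and regulatory T cells 50.3 and 40.9 CPM against 95.2 and 67.4 CPM. The level in Havcr2 Pdcd1 cells was thus the lower of the pair in each gate and library. It was the lowest of the 4 states in VISTA-KO CD8 cells and in regulatory T cells of both libraries. In WT CD8 cells it was above Pdcd1 (57.1 CPM) and dividing cells (43 CPM). In conventional CD4 cells it was above Pdcd1 cells in both libraries (35.7 and 41.5 CPM).

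Among these states, Ccr8 in regulatory T cells was highest in Havcr2 Pdcd1 cells, at 399 and 467 CPM, and stood at 221 and 174 CPM in the remaining cells. Ccr2 showed the reverse, with 432 and 445 CPM in the remaining regulatory T cells and 183 and 236 CPM in Havcr2 Pdcd1 cells. Ccr4 was also highest in the remaining cells, at 53.6 and 91.5 CPM, and was higher in VISTA-KO in all 4 of these states of regulatory T cells. The lowest pair was 13.7 and 33.0 CPM in dividing cells. Cxcr4 was likewise higher in VISTA-KO in all 4, from 43.0 and 64.8 CPM in dividing to 80.5 and 132 CPM in the remaining cells. The remaining state held 23.1% of WT and 44.3% of VISTA-KO regulatory T cells. In CD8 cells Cxcr3 was 419 and 409 CPM in the remaining and 146 and 166 CPM in dividing cells, and Cx3cr1 was 51.3 and 37.9 CPM in the remaining and 33.6 and 18.9 CPM in dividing cells.

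**Figure D4:**
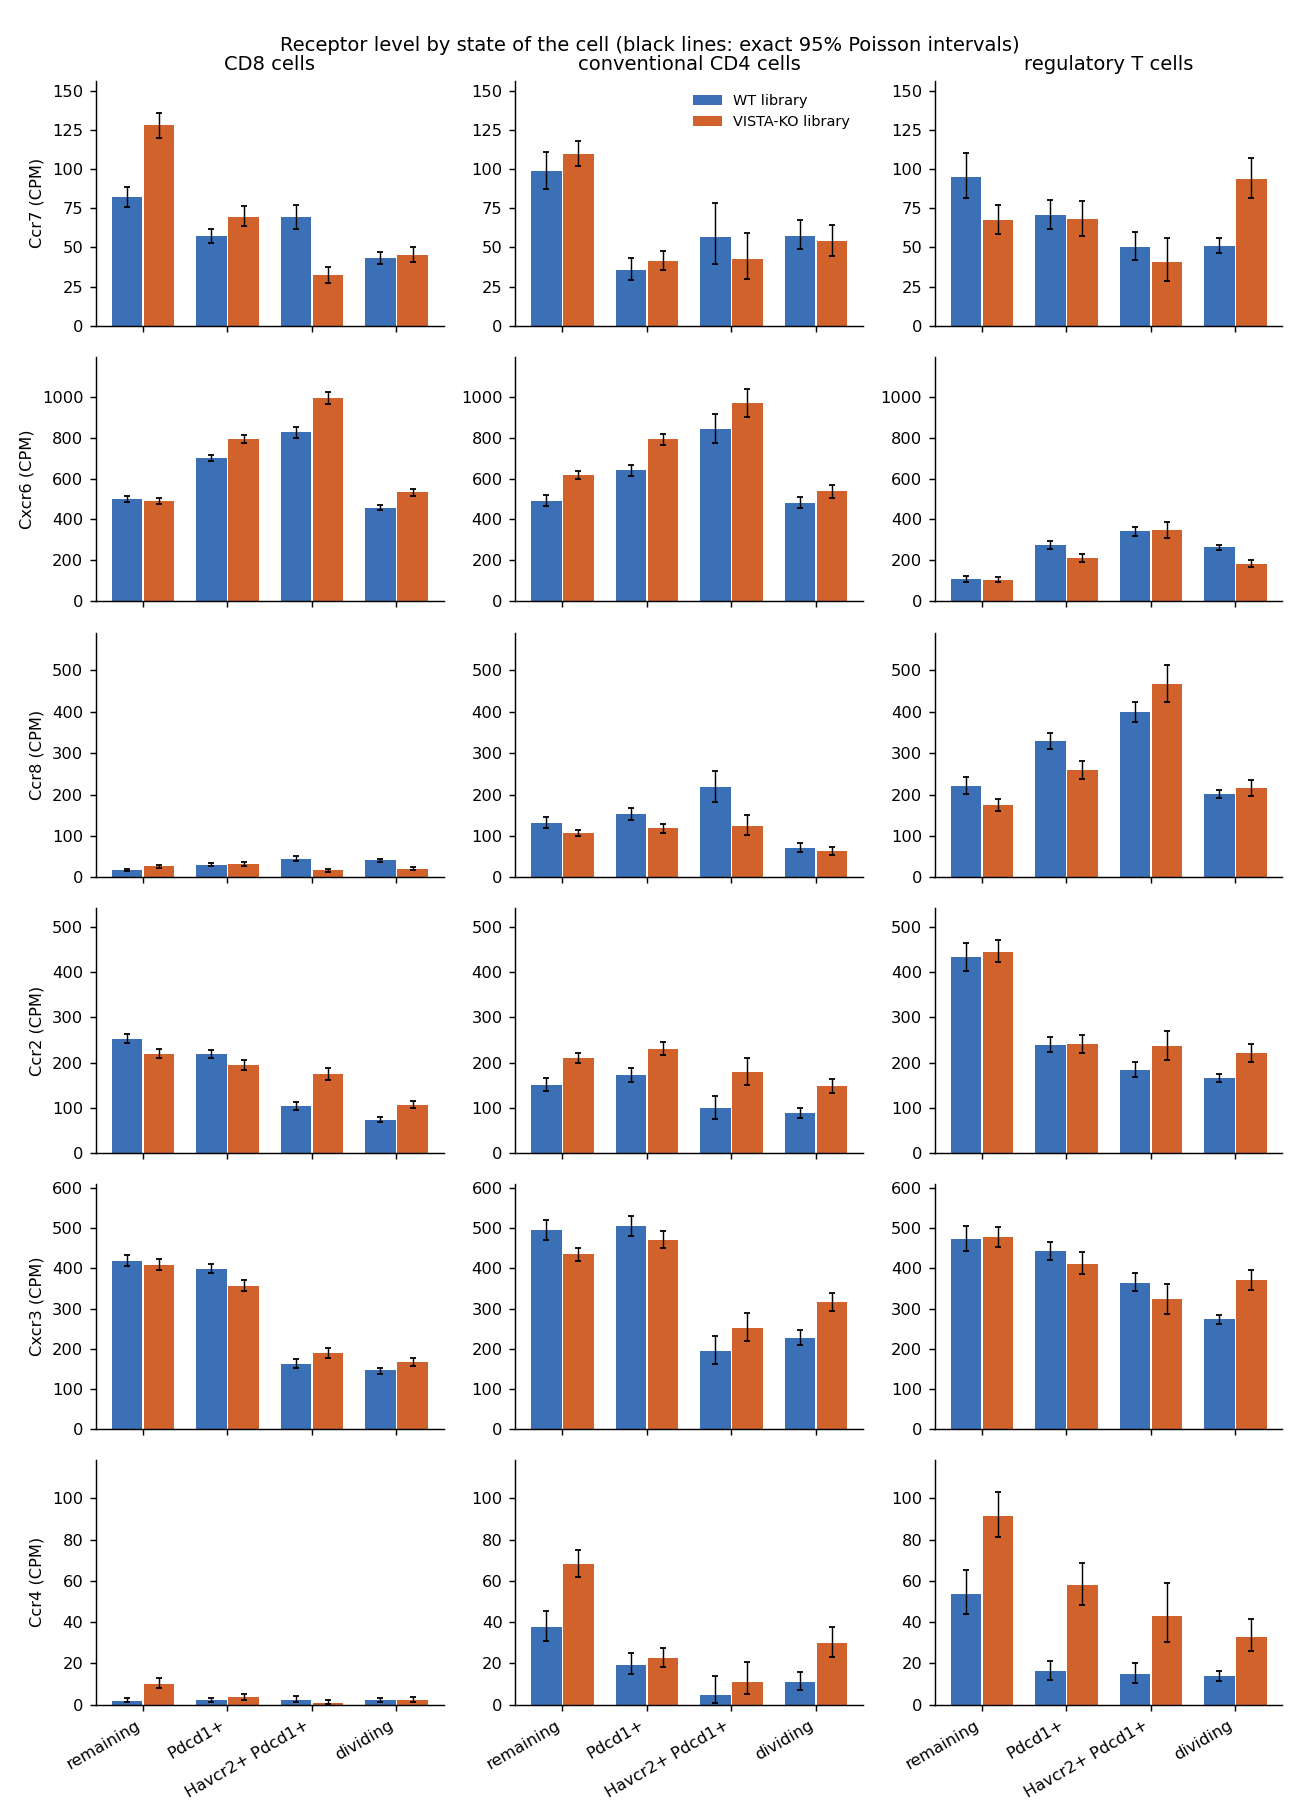
Rows are receptors (CPM on the y axis, 1 scale per row), columns the 3 T cell gates, and the x axis 4 states; bars show the WT (blue) and VISTA-KO (orange) library and black lines the exact 95% Poisson intervals. Among these states Cxcr6 peaked in Havcr2 Pdcd1 cells of all 3 gates, and Ccr4 of regulatory T cells was higher in VISTA-KO in each of the 4. Possible doublets were not left out.

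The T cell receptor libraries gave a second split that did not use expression. Clonotypes, defined by the chains with most UMIs, were grouped by size as 1 cell, 2 to 9 cells and 10 or more cells. In WT CD8 cells Ccr7 was 277, 82.6 and 22.5 CPM in this order and Cxcr6 was 286, 498 and 721 CPM. VISTA-KO CD8 cells gave 249, 46.1 and 22.6 CPM of Ccr7 and 418, 657 and 822 CPM of Cxcr6. Larger CD8 clonotypes thus held less Ccr7 and more Cxcr6 in both libraries. Conventional CD4 cells in clonotypes of 1 cell also had the most Ccr7 (182 and 283 CPM) and the least Cxcr6 (388 and 429 CPM). Their largest size group (199 WT and 449 VISTA-KO cells) had 689.8 and 1025 CPM of Cxcr6. Sizes were counted over the whole library, so this group also took in cells of clonotypes found mostly in CD8 cells. Leaving out the largest WT clonotype, mostly CD8 cells, took the WT conventional CD4 gate from 1661 to 1636 cells. Among regulatory T cells the size group of 10 or more cells held 104 WT and 12 VISTA-KO cells, and Cxcr6 stayed between 97.7 and 139 CPM in the other sizes. Only 50.7% of WT and 72.6% of VISTA-KO regulatory T cells had a clonotype, and the whole gate stood at 261 and 180.3 CPM. These size groups thus do not stand for the whole regulatory gate. A clonotype was found in 75.7% and 80.3% of CD8 and in 68.2% and 77.3% of conventional CD4 cells.

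Ccr2 and Cxcr3 varied between single expanded clonotypes, by a wide margin among the 3 WT clonotypes read. The largest WT clonotype, with 1034 CD8 cells, had 451 CPM of Ccr2, 587 CPM of Cxcr3 and 772 CPM of Cxcr6. The second largest (318 cells) had 93.5, 211 and 959 CPM, and the third (79 cells) had 9.79, 12.7 and 753 CPM. All 3 carried high Cxcr6, but their Ccr2 and Cxcr3 levels differed many-fold. In the largest VISTA-KO clonotype (291 cells) Ccr2 was 218 CPM, Cxcr3 258 CPM and Cxcr6 816 CPM. The second largest VISTA-KO clonotype (147 cells) had 149, 164 and 1030 CPM, so the many-fold differences were those of the WT library. Cells of a clonotype share 1 origin, so a clonotype counts as 1 observation.

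**Figure D5:**
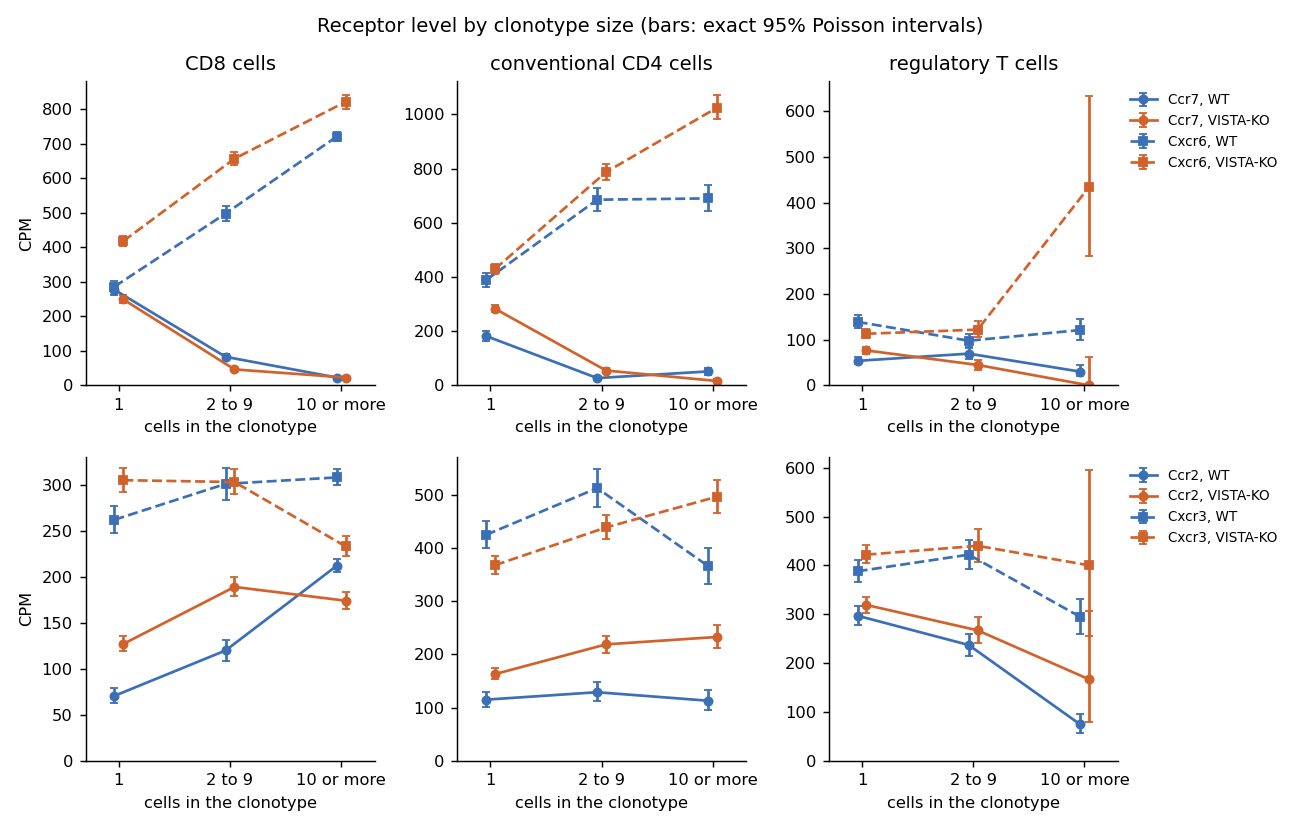
The y axis gives CPM and the x axis clonotype size, for Ccr7 and Cxcr6 (top row) and Ccr2 and Cxcr3 (bottom row) in the 3 T cell gates; lines join the sizes of the WT (blue) and VISTA-KO (orange) library and bars are exact 95% Poisson intervals. In CD8 cells Ccr7 went down from 277 and 249 CPM in clonotypes of 1 cell to 22.5 and 22.6 CPM in those of 10 or more, while Cxcr6 went up.

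Receptors were then counted in the same cell after each cell was thinned to 2000 UMIs. Between 9.93% and 14.1% of cells in a gate showed none of the 9, and 13.7% to 23.8% of cells in a T cell gate showed 3 or more. Ccr7 and Cxcr6 were found together less often than the product of their shares gives. In CD8 cells 81 WT cells had both against 226 expected, and 73 VISTA-KO cells against 234. In conventional CD4 cells the counts were 23 against 69.5 and 57 against 191. In regulatory T cells the counts were near the product, at 21 against 24.1 and 16 against 18. Ccr2 went with Cxcr3 in CD8 cells (758 cells against 614 expected in WT, 520 against 426 in VISTA-KO) and with Cxcr6 in conventional CD4 cells (183 against 151 and 501 against 384). In regulatory T cells Ccr2 and Ccr8 were seen together in 112 WT cells against 152 expected and in 96 VISTA-KO cells against 127. These are descriptions of cells that share a library, possible doublets included, with no test.

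Other genes of the system were read from lists of the remaining chemokine receptors (14 genes, 8 tested), ligands of the 9 receptors (16 genes, 10 tested) and signaling proteins downstream of them (13 genes, all tested). Of the other receptors, 4 of 8 were higher in regulatory T cells than in CD8 cells, beside 4.86% of all genes. They were Ccr3 (log2 difference 2.60 ± 0.47 SE, edgeR adjusted p = 0.00971), Ccr6 (2.07 ± 0.45), Ccr1 (1.80 ± 0.23) and Ccrl2 (1.27 ± 0.25). All but Ccrl2 were low in CD8 cells. WT and VISTA-KO levels there were 2.91 and 2.43 CPM for Ccr3, 4.73 and 1.79 CPM for Ccr6 and 2.31 and 1.32 CPM for Ccr1. Within WT and VISTA-KO the log2 difference was 1.46 and 3.69 for Ccr3 and 1.32 and 3.10 for Ccr6. Ccr10, a receptor of skin-homing T cells, was the 1 of 8 called lower in CD8 than in conventional CD4 cells, beside 1.71% (-1.72 ± 0.28 SE, adjusted p = 0.017). Of the ligands, 3 of 10 were lower in regulatory T cells than in CD8 cells, beside 1.99%. They were Ccl1, Ccl7 and Ccl8, with Ccl1 at -1.97 ± 0.39 SE (edgeR adjusted p = 0.0184). Ccl7 and Ccl8 were low in both gates. In CD8 cells Ccl7 was at 2.72 and 4.69 CPM and Ccl8 at 3.84 and 7.34 CPM. The WT and VISTA-KO regulatory sums held 19 and 23 UMIs of Ccl7 and 19 and 22 UMIs of Ccl8. Gate comparisons of the listed genes were not examined without macrophage RNA or possible doublets. Of the signaling genes, none of the 13 was called in CD8 against conventional CD4 or in regulatory against conventional CD4 cells by edgeR, although 5 had an unadjusted p under 0.05 in each. Rgs1, which dampens G protein signals, was lower than in conventional CD4 cells by less than 2-fold in both (-0.46 ± 0.09 SE in CD8 and -0.51 ± 0.09 SE in regulatory T cells). Arrb1, a beta-arrestin, was higher in regulatory T cells than in CD8 cells (1.40 ± 0.22 SE, adjusted p = 0.00571), the 1 of 13 called there. In Siglech-positive cells 4 of the 13 were lower than in the T cell gates, beside 11.8% of all genes. These were Arrb1 (-1.52 ± 0.38 SE), Grk5 (-1.34 ± 0.46), Arrb2 (-1.09 ± 0.13) and Rgs1 (-1.07 ± 0.08). The calls of Arrb1 and Grk5 rest on few counts. The WT and VISTA-KO Siglech-positive sums held 10 and 1 UMIs of Arrb1 and 6 and 1 UMIs of Grk5.

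Between the libraries, 2 of the 3 other receptors and both ligands with at least 20 CPM were past the fold in regulatory T cells, all higher in VISTA-KO, beside 1.93% of all genes. The receptors were Ccr3 (8.50 CPM in WT, 34.5 in VISTA-KO) and Ccrl2 (74.4 and 127 CPM). The ligands were Cxcl10 (40.9 and 98.4 CPM) and Ccl2 (3.25 and 22.5 CPM). Ccr3 and Ccl2 passed the minimum level through the VISTA-KO library alone, so the filter itself favored a higher VISTA-KO value for them. Melanoma markers stood at 5.76 and 192 CPM and macrophage markers at 141 and 74 CPM in this gate. Without cells holding a melanoma UMI the ratios were 3.86 for Ccr3, 1.74 for Ccrl2, 2.40 for Cxcl10 and 7.44 for Ccl2. Ccr3, Ccrl2 and Cxcl10 were also past the fold without macrophage RNA and without possible doublets. Ccl2, a product of macrophages, had 6 and 2 UMIs without macrophage RNA and a ratio of 0.187 (0.0346 to 0.659) without possible doublets. In conventional CD4 cells 1 of 2 ligands was past the fold, beside 1.10%. This was Ccl1, a Ccr8 ligand, at 46.2 and 18.4 CPM, which passed the minimum level through WT alone. But its levels were 13.3 and 19.9 CPM without possible doublets, where the interval of the ratio was 1.11 to 2.04. In CD8 cells none of the 2 other receptors, 2 ligands and 11 signaling genes with at least 20 CPM was past the fold, beside 0.824% higher and 0.594% lower.

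Finally, each receptor was set against all genes over 32 sums (state, gate and library), as a description with no test, since the sums share libraries and depth. Cxcr6 ran most closely with Fasl (Pearson r = 0.936), Serpinb9 (0.934) and Ifng (0.928), genes of cytotoxic cells, among 8141 genes. Ccr8 ran with Odc1 (0.955), Crem (0.937) and Tnfrsf4 (0.936), which encodes the costimulatory receptor OX40. Ccr4 ran with Nfkbia (0.909), Zbtb7b (0.907), which encodes the CD4 lineage factor ThPOK, and Socs2 (0.899). Ccr9 ran with Ctsl (0.977), Dntt and Ccdc162 (both 0.970), a pattern set by the Siglech-positive sums. Cxcr4 followed Nfkbiz (0.887), Rela (0.874) and Rgs14 (0.864), and Ccr7 followed Tpt1 (0.933), Patj (0.929) and Sh3bp5 (0.917). For Cxcr3 the closest were Sit1 (0.927), Nfatc2 (0.903) and Ppp1r12a (0.899), and for Ccr2 Sept9 (0.857), Qsox1 (0.849) and Pdlim2 (0.846). Cx3cr1 had the weakest neighbors, Ostf1 (0.812), Efhd2 (0.802) and Smpdl3b (0.791).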

How the data were processed

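The deposited tables hold UMI counts per gene and cell, made by the authors with Cell Ranger 5.0.0 against GRCm38 (mm10) and, for the receptor libraries, the clonotype chains. The sources name a 5′ kit in the methods and a 3′ kit in a protocol text, taken here as 5′. The members and gene lists were chosen with earlier results of these data known. Cells with fewer than 600 genes or at least 30% mitochondrial UMIs were left out (113 WT and 139 VISTA-KO barcodes). UMIs in the 2 tables totaled 72098984 and 59916814. No doublet caller was run; possible doublets were left out as an alternative.

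Gate sums (8) were fitted with edgeR 4.0.16 (TMM, filterByExpr, quasi-likelihood test, library as a block, Benjamini-Hochberg over 12602 genes) in R 4.3.3. The libraries stood as replicates although they differ in genotype. With the library as a block, p-values rest on how far the differences between gates varied from 1 pool to the other. Levels are CPM with exact Poisson intervals, ratios have exact conditional intervals, and shares exact Clopper-Pearson intervals (Python 3.11.15, scipy 1.17.1). The gate fit was run on simulated counts with 1 fixed spread for all genes and no difference between libraries. The real pools differ in genotype, so that run does not check the p-values given here. All 9 members were named, with the 3 genes most like each by Pearson r of log2(CPM + 5). Of each list at most 4 called genes are named for a comparison, and some comparisons with called genes are left out. Alternatives were DESeq2 1.42.0, other scalings, filters, pseudocounts and gates, and sets of cells left out. No sequence is printed, and 1 cell state and 1 gene are not reported here.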

Additional observations from a re-analysis of the deposited data

Results flagged for a closer look

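Cxcr3, Cxcr4 and Cxcr6 had VISTA-KO over WT ratios on opposite sides of 1 in different cell types, with intervals that did not reach 1. The Cxcr4 ratio was 1.83 in regulatory T cells, 1.27 in conventional CD4 cells and 0.818 in CD8 cells. The Cxcr6 ratio was 0.573 in Siglech-positive cells and 0.691 in regulatory T cells, and 1.11 in CD8 cells and 1.16 in conventional CD4 cells. The Cxcr3 ratio was 0.970 in CD8 cells and 1.18 in regulatory T cells. With 1 library per genotype the differences between cell types were not tested. The Cxcr6 ratio of Siglech-positive cells rested on cells with Cd3 UMIs or a clonotype, as 3 WT and 2 VISTA-KO UMIs remained without them. That of regulatory T cells was 0.961 without possible doublets, and the Cxcr3 ratio of CD8 cells was 1.17 without the largest clonotypes.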

How the results depend on the processing

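Of 109 recomputed counts of receptors, 101 stayed within 1.5 times their first value. With no replicate block, 1 receptor instead of 2 was called in CD8 against conventional CD4 cells. It was also 1 instead of 2 in regulatory against conventional CD4 cells, Ccr8 being the one lost each time. DESeq2, which kept the library as a block, lost Ccr8 in both comparisons too. The Ccr8 calls thus depended on the test used as well as on the pairing of gates within a library. Calls over all genes in CD8 against conventional CD4 cells went from 112 higher and 216 lower to 35 and 115 with no replicate block. For VISTA-KO against WT, conventional CD4 cells had 1 receptor past 1.5-fold instead of 2 at a minimum of 50 CPM, and Siglech-positive cells had 1 instead of 2 without dividing cells, 1 without dividing cells and possible doublets, and 0 when cells with Cd3 UMIs or a clonotype were left out; the last 2 settings were chosen after seeing the data. Of 549 log2 differences between gates, 522 were counted as unchanged, 13 lost the call and 6 gained it. Another 7, within-library values without a test, moved. Unchanged meant that a called difference kept its direction and call, or that an uncalled one stayed uncalled, whatever its sign. A within-library value was unchanged if it lay within the standard deviation of the 2 libraries' values around the first estimate. Ccr2 in CD8 against conventional CD4 cells, at 0.37 in WT and -0.16 in VISTA-KO, was counted so. Only Ccr9 in CD8 against conventional CD4 cells was counted as reversed, to -2.14 (edgeR adjusted p = 0.00782). This was when Siglech-positive cells stayed in every gate they met, which puts plasmacytoid dendritic cell RNA into the conventional CD4 gate. Of 370 log2 ratios, 67 moved by more than their interval. The 370 include settings that could not move a ratio. These were no minimum CPM and a minimum of 50 CPM, and leaving out the largest clonotypes in Siglech-positive cells. With dividing cells taken at 1 UMI, 46 WT and 56 VISTA-KO conventional CD4 cells were left in the Havcr2 Pdcd1 state, where Cxcr6 was still highest (839 and 1062 CPM, against 632 and 786 CPM in Pdcd1 cells). Levels under about 20 CPM rest on few UMIs in small sums. Cx3cr1 in Siglech-positive cells had 25 WT and 10 VISTA-KO UMIs, at 9.76 and 6.99 CPM. In VISTA-KO conventional CD4 cells its 16.1 CPM rested on 247 UMIs. No setting replaces the missing replicate of each genotype.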

Other observations

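Cells that met none of the gates numbered 1369 in WT and 1264 in VISTA-KO, with a median of 3423 and 3734 UMIs. By the rules they held no Cd4, Cd8a or Cd8b1 UMI and fewer than 2 Siglech UMIs, and they had Cd3e at 1236 and 1148 CPM. Their receptor levels were 205 and 245 CPM for Ccr2, 367 and 514 CPM for Cxcr6, 352 and 297 CPM for Cxcr3, 183 and 132 CPM for Ccr7, 171 and 134 CPM for Ccr8, 85.1 and 99.4 CPM for Cxcr4, and 31.2 and 46.3 CPM for Ccr4. Cx3cr1 was at 7.90 and 8.86 CPM and Ccr9 at 2.39 and 0.532 CPM. Trdc, the delta chain constant gene of gamma-delta T cells, was at 23 and 70 CPM.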
